A study of Drosophila melanogaster with 3 samples.

Results

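The 300 most abundant gene rows of the Dcg/+ (control) library, out of 16509, were described here as the transcriptome of the control larval fat body. They were chosen by CPM (the count of a gene per 1000000 counts of the library) in that library alone. The libraries came from 3 genotypes of Drosophila melanogaster, with 1 library each. All 3 carried the driver Dcg-Gal4, which the study describes as fat body-specific, either alone (Dcg/+), with a transgene overexpressing the kinase Hippo (Dcg > Hpo) or with a hairpin against it (Dcg > Hpo-RNAi). Driver lines of this type are also active in blood cells. The paper describes pooled fat bodies dissected from larvae and the sample labels name larval fat tissue, whereas the extraction protocol deposited with them names adult heads. A figure legend of the paper gives the third instar as the stage for Dcg/+ and Dcg > Hpo. Sex was not given in the labels. Dcg > Hpo and Dcg > Hpo-RNAi served only to show whether the ranks of the control genes held. With 1 library per genotype there was no spread between animals, so no test was made and intervals cover counting error only.

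The fat body is the liver and adipose tissue of the insect. In the feeding larva it stores triglyceride and glycogen, sets growth according to nutrition, and secretes most proteins of the hemolymph, among them storage hexamers, lipoproteins, clotting factors and antimicrobial peptides. Toward the end of larval life, under ecdysone, it takes the storage proteins back up as a reserve for metamorphosis. The salivary gland lies against it and makes the glue that fixes the pupal case, and the larval testis is embedded in it, so both can be carried along in a dissection.

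The libraries held 21918672 (Dcg/+), 23227940 (Dcg > Hpo) and 23524682 (Dcg > Hpo-RNAi) counts, with 13308, 12146 and 12961 genes above 0. The targeted gene hpo was at 13.2 CPM (95% exact Poisson interval 11.7 to 14.8) in Dcg/+, 498.0 CPM under Dcg > Hpo and 7.74 CPM (6.65 to 8.95) under Dcg > Hpo-RNAi, in the direction each label names. The 3 defining fat body markers were all among the first 14 genes of Dcg/+. Lsp1beta was at rank 1, Lsp2 at rank 7 and Fbp1 at rank 14, and together they held 11.2% of the counts there, 11.5% under Dcg > Hpo and 12.1% under Dcg > Hpo-RNAi. Of 13 further fat body genes, which held 7.88%, 8.06% and 6.52%, 5 were members: Lsp1alpha, Fbp2, Lsp1gamma, Rfabg and CG10924. The other 8 were lower, from the iron carrier gene Tsf1 at rank 357 (220.0 CPM) to the lipid transfer particle gene Apoltp at rank 3048 (16.1 CPM). The collagen IV genes Cg25C and vkg were at 57.6 and 47.3 CPM, and AkhR, the receptor of adipokinetic hormone, at 45.3 CPM.

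The control transcriptome was concentrated in few genes. The most abundant gene held 7.36% of all counts, the first 4 held 21.9%, the first 10 held 36.7% and the first 100 held 67.7%. The 300 members held 80.45% (exact Clopper-Pearson 95% interval 80.44 to 80.47). The first 26 genes held 50% of all counts, whereas 1086 genes were needed for 90%. Level fell steeply along the list, from 73560 CPM at rank 1 through 20010 CPM at rank 10 and 1388 CPM at rank 100 to 288.5 CPM at rank 300, against a median of 2.24 CPM over all rows. Rank 300 was no natural boundary. The genes just inside it, CG1773, zip, CG5590, CoVIb and CG18563, lay between 288.5 and 295.4 CPM, and those just outside, NLaz, 26-29-p, Atg8a, Mtpalpha and CG43114, lay between 286.8 and 288.0 CPM.

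**Figure D1:**
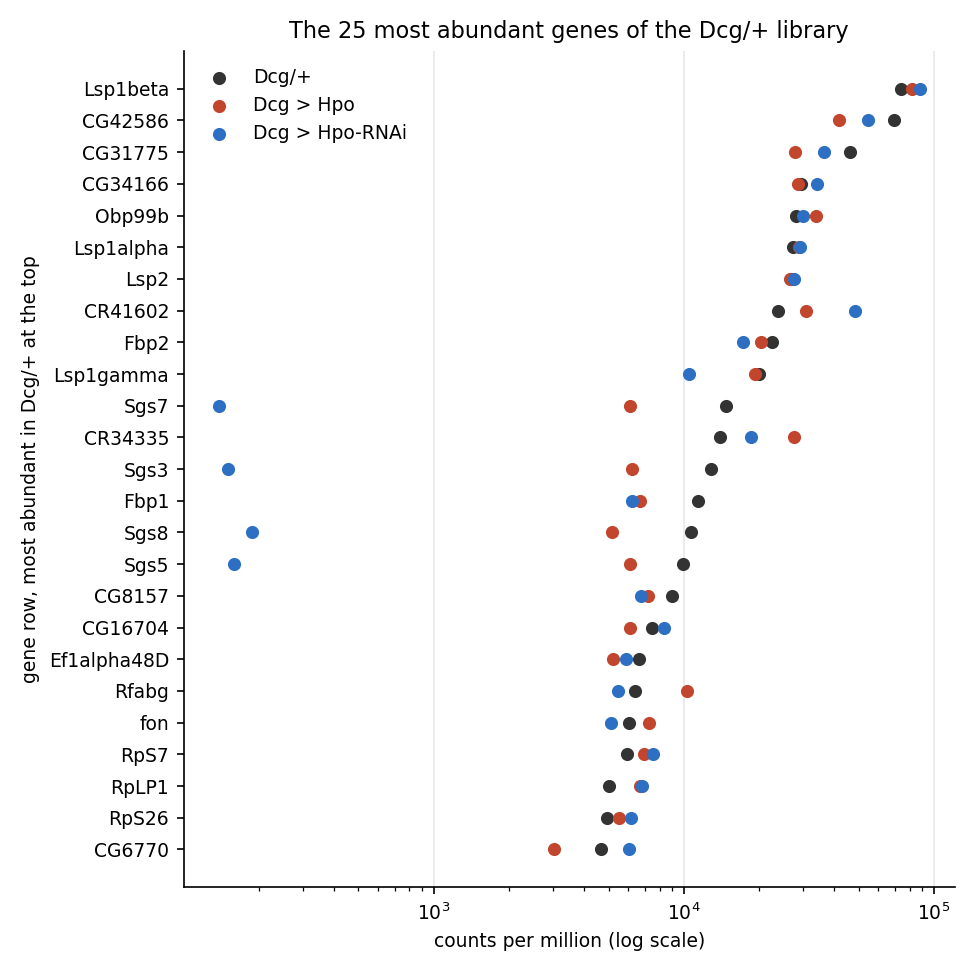
CPM on a log axis of the 25 most abundant genes of Dcg/+, with 1 point per library. Lsp1beta is at the right end in all 3 libraries, and the points of Sgs7, Sgs3, Sgs8 and Sgs5 under Dcg > Hpo-RNAi lie between 138.3 and 188.5 CPM, far left of the other points.

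The members were placed in 31 classes, 163 of them by symbol and the rest by annotated name after the values were seen. The largest shares of all counts were those of 53 protein-coding genes without an annotated name (20.7%), 6 larval serum and storage protein genes (18.2%) and 79 cytosolic ribosomal protein genes (16.4%). Next came 7 salivary glue and secretion genes (5.28%), 2 odorant binding protein genes (3.03%), 2 ribosomal RNA pseudogenes (2.44%) and 9 noncoding RNA genes (2.0%). Every other class held under 1.6%. The library was made from the 3′ ends of transcripts, so CPM counts tags per gene and was not divided by length. Tag counts of this kind do not call for such a division, and it favours short genes by construction. After dividing by coding length, the storage class held 5.26% of the length-scaled total, the ribosomal proteins 21.6% and the unnamed genes 39.5%. Of the 300 genes highest on that scale, 219 (73.0%) were members.

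**Figure D2:**
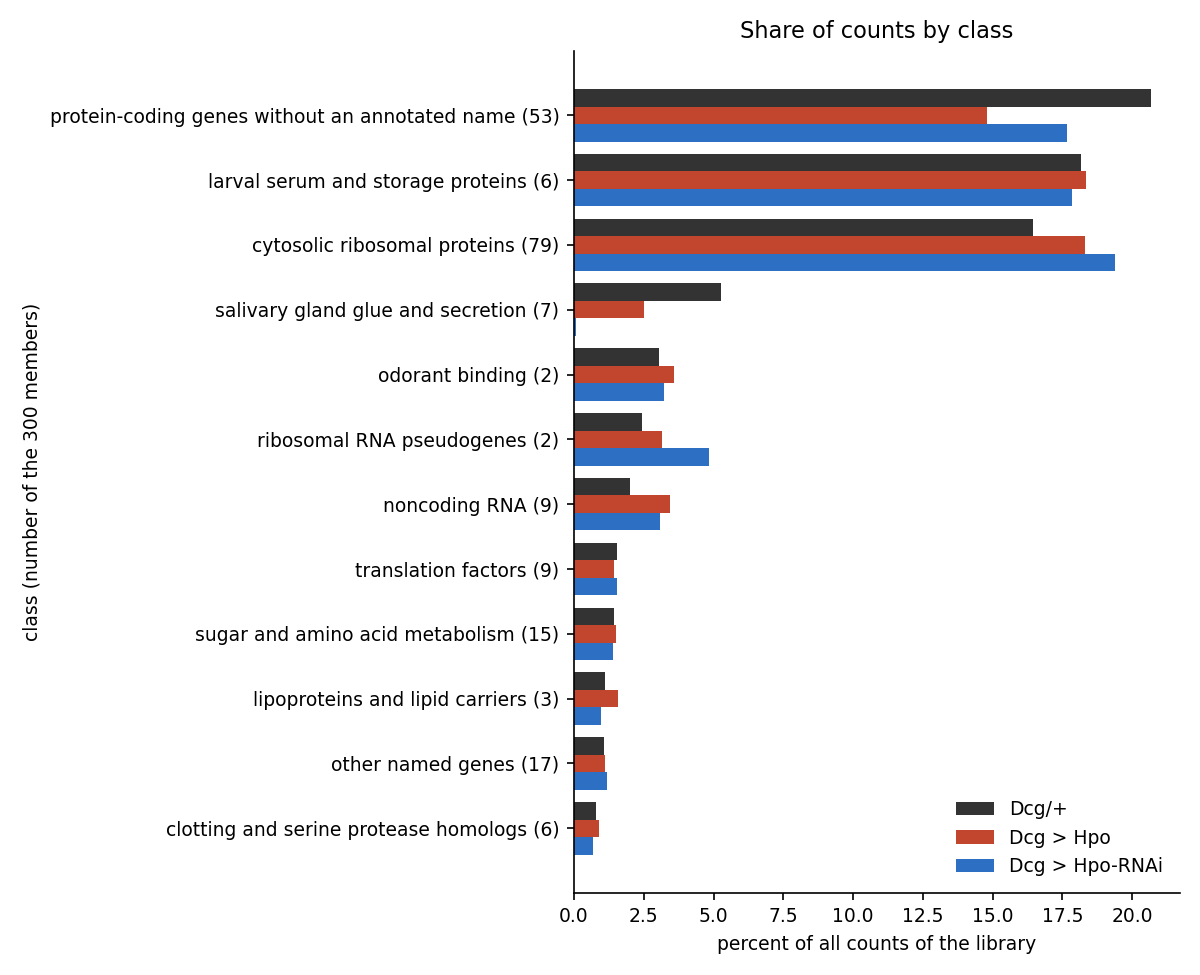
Percent of all counts of a library held by the 12 classes largest in Dcg/+, with the number of members in parentheses and 1 bar per library. The storage class was between 17.8% and 18.3% in the 3 libraries, whereas the glue class was at 5.28%, 2.52% and 0.0686%.

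Storage proteins filled 5 of the first 10 ranks. Lsp1beta, Lsp1alpha and Lsp1gamma encode the subunits of the hexamer larval serum protein 1, Lsp2 encodes the second serum hexamer, Fbp1 encodes the receptor that takes larval serum protein 1 back into the fat body, and Fbp2 encodes a relative of alcohol dehydrogenase. Lsp1beta was at 73560 CPM in Dcg/+ (73450 to 73680), 81620 CPM under Dcg > Hpo and 87740 CPM under Dcg > Hpo-RNAi, rank 1 throughout. Lsp1alpha was at 27230, 28830 and 29230 CPM and Lsp2 at 26830, 26630 and 27620 CPM. These 3 genes therefore differed by less than 1.2-fold across libraries. Lsp1gamma, on the other hand, was at 20010 and 19250 CPM in Dcg/+ and Dcg > Hpo and at 10520 CPM under Dcg > Hpo-RNAi. The beta and gamma subunit genes have similar coding lengths, and their count ratio was 3.68 in Dcg/+, 4.24 under Dcg > Hpo and 8.34 under Dcg > Hpo-RNAi, whereas beta over alpha stayed between 2.70 and 3.00. Fbp1 was highest in Dcg/+ (11390 CPM) and lower in both others (6670 and 6190 CPM). Fbp2 was at 22520, 20300 and 17170 CPM.

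Ranks 2, 3 and 4 belonged to neighbours without an annotated function on chromosome 2L. CG31775 (2L 14737090 to 14737769, minus strand), CG42586 (14741161 to 14741840, minus strand) and CG34166 (14743193 to 14743879, plus strand; dm6 coordinates of the Ensembl annotation) lie within 6790 bp. The 3 genes held 14.5% of the Dcg/+ counts, 9.81% under Dcg > Hpo and 12.5% under Dcg > Hpo-RNAi. Each is short, with a coding sequence of 246 or 267 bases and 1 intron. On the scale of counts per coding base they took ranks 1, 2 and 3, and Lsp1beta rank 9.

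CG31775 and CG42586 looked like copies in the annotation. Both span 680 bp with 267 coding bases, 1 intron and 304 bases of 3′ untranslated region, their starts lie 4071 bp apart, and each has an intronless gene of 1047 coding bases next to its 3′ end on the other strand (CG31835 and CG42585), which was at 1.05 and 2.74 CPM. CG42586 was at 69520 CPM in Dcg/+, 41650 CPM under Dcg > Hpo and 54290 CPM under Dcg > Hpo-RNAi, and CG31775 at 46300, 27820 and 36200 CPM. The count ratio of CG42586 to CG31775 was 1.502 (1.498 to 1.505), 1.497 (1.492 to 1.502) and 1.5 (1.495 to 1.504), with overlapping intervals. Of the 38 pairs of members within 10 kb of each other without shared exons, this pair had the most constant ratio, and the median pair varied 1.57-fold across libraries. Reads that fit both copies could have been divided by the counting, so the sum of the pair (11.6% of the Dcg/+ counts) is firmer than either value. The sum was 6.95% under Dcg > Hpo and 9.05% under Dcg > Hpo-RNAi. CG34166, in contrast, was at 29440, 28640 and 34180 CPM. Beyond it, CG42681 was at 2.51 CPM and CG42587 at rank 521 with 141.9 CPM.

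The other 50 members without an annotated name held 6.15% of the Dcg/+ counts. CG8157 was the highest (8969, 7197 and 6721 CPM in Dcg/+, Dcg > Hpo and Dcg > Hpo-RNAi), followed by CG16704 (7429, 6096 and 8335 CPM) and CG6770 (4677, 3034 and 6040 CPM). CG16704 lies in a stretch of 13366 bp on 2L with 3 further members, CG16713, CG31778 and CG16712, the last also known as the immune-induced gene IM33.

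Genes of the translation machinery were the most numerous class. Of 93 rows with the symbol of a cytosolic ribosomal protein or a protein like it 79 were members, from 479.4 to 5952 CPM with a median of 1796 CPM, and the other 14 rows reached at most 228.2 CPM with a median of 14.8 CPM. RpS7 was the highest (5952, 6904 and 7562 CPM in Dcg/+, Dcg > Hpo and Dcg > Hpo-RNAi), followed by RpLP1 (5008, 6653 and 6806 CPM), RpS26 (4919, 5491 and 6130 CPM) and RpS15 (4647, 5384 and 6209 CPM). Although their proteins enter the ribosome in equal numbers for nearly all subunits, the tag counts of the 79 genes spanned 12.4-fold. Across these genes the level had a Spearman correlation of -0.10 with coding length (n = 79), against -0.36 over the 287 members with a coding length, in 1 library and as a description only. The class moved narrowly between libraries: every member lay between 0.837 and 1.37 times its Dcg/+ share under Dcg > Hpo and between 0.874 and 1.61 times under Dcg > Hpo-RNAi. A further 1.54% was held by 9 translation factors. Ef1alpha48D, which brings aminoacyl-tRNA to the ribosome, was at 6604, 5208 and 5868 CPM, the ribosome-bound scaffold Rack1 at 2472, 2311 and 3439 CPM and the elongation factor EF2 at 1632, 1639 and 1433 CPM. The helicase eIF-4a was at 970.6, 919.8 and 937.8 CPM.

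Secreted carriers and hemolymph proteins formed the next group. Obp99b, a small secreted protein of the odorant binding family, was at rank 5 with 28080 CPM in Dcg/+, 33790 CPM under Dcg > Hpo and 30040 CPM under Dcg > Hpo-RNAi, and Obp99c was at 2241, 2123 and 2233 CPM. Rfabg (now apolpp), the apolipophorin that forms the main lipoprotein of the hemolymph, was at 6394, 10340 and 5441 CPM, the highest value being that of Dcg > Hpo. Npc2g, of the Niemann-Pick type C2 family of lipid binding proteins, was at 3557, 3350 and 2746 CPM, and the fatty acid binding protein gene fabp at 1339, 2064 and 1358 CPM. The clotting factor gene fon (fondue) was at 6061, 7271 and 5101 CPM. The other 5 genes of the clotting and serine protease homolog class were far lower, from 288.5 to 475.0 CPM, among them CG6639, CG8586 and Hmu. The basement membrane genes trol and Glt were at 499.3 and 324.2 CPM.

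Immune genes made up a small share. The 7 genes for antimicrobial or immune-induced peptides held 0.485% of the Dcg/+ counts and varied more between libraries than the carriers did. Drs, the antifungal peptide drosomycin, was at 1873 CPM in Dcg/+, 235.5 CPM under Dcg > Hpo and 843.4 CPM under Dcg > Hpo-RNAi. The stress peptide gene TotA was at 848.2, 932.4 and 317.5 CPM. By contrast, vir-1 was lowest in Dcg/+ (592.5, 757.0 and 822.7 CPM), and Vago was at 458.0, 340.4 and 440.6 CPM. The 3 genes of immune recognition held 0.138%: NimB3 at 647.5 CPM, the thioester protein gene Tep2 at 402.4 CPM and NimB1 at 329.6 CPM.

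Metabolic enzymes were numerous but individually modest. The 15 genes of sugar and amino acid metabolism held 1.45%, led by the alcohol dehydrogenase gene Adh (4278 CPM in Dcg/+, 5357 under Dcg > Hpo and 2228 under Dcg > Hpo-RNAi), CG10924 (Pepck2, a phosphoenolpyruvate carboxykinase, 1870, 1048 and 2356 CPM), the malate dehydrogenase gene Mdh1 (1674, 1601 and 2062 CPM) and the glutamine synthetase gene Gs1 (907.4, 626.5 and 1940 CPM). Adh was lowest and Gs1 highest under Dcg > Hpo-RNAi. The 7 genes of fatty acid and triglyceride metabolism held only 0.348%. They were led by scu, an enzyme of beta-oxidation (1023, 965.7 and 901.4 CPM), Lsd-1, which encodes perilipin 1 of the lipid droplet surface (509.5, 314.8 and 316.2 CPM), oys, a lysophospholipid acyltransferase (507.3, 602.1 and 561.1 CPM), and CG12262, a medium-chain acyl-CoA dehydrogenase (399.9, 287.2 and 496.6 CPM). All 7 of these were among the top 300 of Dcg > Hpo-RNAi, and 2 among those of Dcg > Hpo, although each had at least 0.618 times its Dcg/+ share there. They ranked from 131 to 283 in Dcg/+.

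The 7 genes of purine, nucleotide and pteridine metabolism held 0.696% in Dcg/+, 0.444% under Dcg > Hpo and 0.758% under Dcg > Hpo-RNAi. The purine synthesis genes ade5 and ade3 (now Paics and Gart) were at 2605, 1836 and 3125 CPM and at 1086, 248.3 and 957.0 CPM, and CG11089 at 1055, 336.6 and 1551 CPM. Pu, the GTP cyclohydrolase that opens pteridine synthesis, was at 554.6, 80.3 and 263.6 CPM. These 4 genes were lowest under Dcg > Hpo. In the opposite direction, awd, a nucleoside diphosphate kinase, was at 679.9, 1295 and 783.0 CPM. The 6 nuclear-encoded mitochondrial energy genes held 0.243%, led by the outer membrane channel gene porin (484.3, 925.8 and 751.2 CPM), wal (471.7, 409.6 and 467.3 CPM) and CG7834 (440.2, 458.5 and 491.7 CPM), with the ATP synthase gene CG1746 at 390.8, 751.0 and 353.8 CPM.

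Chaperone and redox genes (9 members, 0.742%) were led by the small heat shock protein gene Hsp23 (1837 CPM in Dcg/+, 482.2 under Dcg > Hpo and 2530 under Dcg > Hpo-RNAi), the catalase gene Cat (1197, 1331 and 717.5 CPM), CG6762 (1185, 387.3 and 2147 CPM) and Hsp27 (702.4, 418.4 and 1313 CPM). Of the hormone response and secreted signal class (7 members, 0.44%), CG5210 and Idgf4, both of the imaginal disc growth factor family, were at 1134, 1163 and 936.7 CPM and at 845.2, 1274 and 832.2 CPM. Thor, the translational repressor 4E-BP that is induced in poor nutrition, was at 772.0, 272.9 and 613.1 CPM, and CG11395, of the growth-blocking peptide family, at 472.0, 342.8 and 566.3 CPM.

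The 5 detoxification genes held 0.356% and were led by the glutathione transferase gene GstE12 (1291 CPM in Dcg/+, 1540 under Dcg > Hpo and 1089 under Dcg > Hpo-RNAi) and the cytochrome P450 gene Cyp6d5, followed by GstS1 (474.9, 266.9 and 376.6 CPM) and Cyp4d1 (458.8, 336.2 and 392.1 CPM). Lysosome and proton pump genes (6 members, 0.327%) were led by CG3376 (809.7, 380.7 and 1589 CPM), the lysosomal protease gene cathD (806.0, 549.8 and 671.6 CPM), CREG (597.2, 427.5 and 716.9 CPM) and the mannosidase gene LM408 (405.0, 218.9 and 495.1 CPM). All 4 were lowest under Dcg > Hpo, as was cer (327.4, 219.3 and 261.8 CPM), whereas the proton pump gene Vha16-1 was highest there (326.2, 465.6 and 354.3 CPM). Membrane and cell surface genes (7 members, 0.768%) were led by the tetraspanin gene Tsp42Ep (2759, 1546 and 2627 CPM) and by Sdc, the heparan sulfate proteoglycan syndecan (1755, 1998 and 2382 CPM), with Tsp42Eo (1267, 713.1 and 1233 CPM) and Tsp42Ek (657.1, 461.2 and 646.0 CPM) next.

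Smaller cellular classes followed. The 4 cytoskeletal genes were the profilin gene chic (1603, 1977 and 2134 CPM in the order Dcg/+, Dcg > Hpo, Dcg > Hpo-RNAi), alphaTub84B (517.8, 1016 and 699.6 CPM), the gelsolin gene Gel (454.1, 410.6 and 427.8 CPM) and zip, a nonmuscle myosin heavy chain (290.7, 220.8 and 374.4 CPM). The secretory pathway was represented by the reticulon gene Rtnl1 (776.0, 789.7 and 610.3 CPM), the calreticulin gene Crc (683.3, 946.7 and 616.9 CPM), Tango9 (340.4, 284.5 and 515.5 CPM) and Gdi (328.5, 299.9 and 378.2 CPM). Signalling and transcription genes (9 members, 0.599%) were led by BHD and Gycalpha99B, whose counts overlap those of other members, followed by the cyclin gene CycG (575.5, 737.3 and 417.6 CPM) and 14-3-3epsilon (532.7, 922.1 and 697.9 CPM). Among 17 other named genes the highest were regucalcin (1462, 618.0 and 1306 CPM), the ornithine decarboxylase antizyme gene Oda (1425, 1712 and 1197 CPM), CG13641 (1057, 1679 and 1210 CPM) and UK114 (997.2, 1026 and 906.6 CPM).

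Among transcripts that encode no protein, the row of the 18S ribosomal RNA pseudogene CR41602 was at rank 8, with 23900 CPM in Dcg/+, 30740 CPM under Dcg > Hpo and 48150 CPM under Dcg > Hpo-RNAi. The long noncoding RNA CR34335 was at rank 12 (14000, 27670 and 18600 CPM), followed by Uhg7, a host of small nucleolar RNAs (1892, 2085 and 2469 CPM), CR40469 (894.1, 1616 and 6457 CPM) and CR42862 (774.7, 735.1 and 938.9 CPM). The exons of Uhg7 overlap those of RpL23A on the same strand. The 2 rows had 41478 and 46380 counts in Dcg/+, so the level of Uhg7 itself is uncertain. CR41602, CR34335 and CR40469 were all lowest in Dcg/+. The other ribosomal RNA pseudogene row, CR40677, was not (547.9, 628.6 and 306.9 CPM), and roX1 was highest there. Rows of ribosomal RNA origin can depend on how completely a library selected polyadenylated RNA, which was not tested. Leaving out all noncoding rows changed the share of the list kept in the other libraries by less than 2 percentage points (82.3% and 89.3% kept).

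The glue genes are known from the salivary gland rather than the fat body, and they were among the most abundant members. Sgs7 was at 14790 CPM in Dcg/+, 6108 CPM under Dcg > Hpo and 138.3 CPM under Dcg > Hpo-RNAi. Sgs3 was at 12800, 6229 and 150.9 CPM, Sgs8 at 10730, 5144 and 188.5 CPM, and Sgs5 at 9966, 6118 and 158.6 CPM. In all 4 the order of the libraries was the same, and the lowest value was that of Dcg > Hpo-RNAi. Sgs4 (1771, 902.5 and 27.2 CPM), CG7587 (Sgs5bis, 1414, 169.1 and 9.90 CPM) and Eig71Ee (1286, 550.2 and 12.2 CPM) had it too. The class held 5.28% of the counts in Dcg/+, 2.52% under Dcg > Hpo and 0.0686% under Dcg > Hpo-RNAi.

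Another 5 members, without an annotated name, went with them. In all, 12 members were at 0.05 times or less of their Dcg/+ share under Dcg > Hpo-RNAi, namely the 7 glue genes and CG7606, CG12310, CG42460, CG15404 and CG31698. Over the 11521 genes that reached 10 counts in this comparison 1.51% were that low, and 3 of the 300 at ranks 301 to 600. CG7606 was at 3296 CPM in Dcg/+, 989.6 CPM under Dcg > Hpo and 21.1 CPM under Dcg > Hpo-RNAi, and CG12310 at 2016, 1147 and 13.7 CPM. CG42460 was at 918.9, 278.1 and 15.1 CPM, CG15404 at 511.6, 111.6 and 13.3 CPM, and CG31698 at 1482, 357.0 and 40.4 CPM. The 12 had 0.00641 to 0.0273 times the Dcg/+ share under Dcg > Hpo-RNAi and 0.12 to 0.614 times under Dcg > Hpo, and held 6.10%, 2.81% and 0.0789% of the counts. Of the 12, 8 lay in 3 groups. Sgs8, Sgs7 and Sgs3 span 4436 bp of 3L, CG7587, Sgs5 and CG7606 span 4068 bp of 3R, and CG31698 and CG15404 span 1300 bp of 2L. In bulk RNA of this kind, fewer cells of a type in the sample and less RNA per cell cannot be told apart.

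Markers of other tissues were otherwise low in Dcg/+. The 179 genes of the 14 non-fat lists held 5.58% of the counts there (3.82% under Dcg > Hpo and 0.436% under Dcg > Hpo-RNAi), and without the salivary gland list 168 genes held 0.433% (1.30% and 0.367%). Of the 179 genes, 7 were among the 300, namely 6 glue and secretion genes and Lcp1, a larval cuticle protein. The salivary list as a whole (11 genes, none at 0 in Dcg/+) held 5.15%, led by Sgs7, Sgs3 and Sgs8. Its 6 genes among the 300 and sage were lower under Dcg > Hpo than in Dcg/+. The less abundant Sgs1 (82.2 CPM in Dcg/+ and 97.9 under Dcg > Hpo) and fkh (22.0 and 25.7 CPM) were higher there. So were PH4alphaSG2 (1.73 and 7.32 CPM) and PH4alphaSG1 (0.684 and 4.87 CPM).

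The testis and male germ line list (34 genes, none at 0 in Dcg/+ and 5 at 0 under Dcg > Hpo) held 0.135% in Dcg/+, 0.00572% under Dcg > Hpo and 0.152% under Dcg > Hpo-RNAi. Its leading genes were S-Lap7 (206.2, 1.64 and 188.0 CPM), the sperm tail gene dj (130.4, 2.97 and 151.9 CPM) and S-Lap8 (94.3, 0.775 and 125.1 CPM). The male dosage compensation RNA roX1, a member at rank 270, was at 340.7, 108.2 and 138.8 CPM. Both roX1 and the testis list were thus lowest under Dcg > Hpo, and roX1 was highest in Dcg/+ where the list was highest under Dcg > Hpo-RNAi. The epidermis and cuticle list (12 genes, 2 at 0) held 0.119%, 0.695% and 0.0301%, led by Lcp1 (556.1, 2863 and 139.7 CPM), Lcp4 (269.4, 2210 and 61.0 CPM) and Lcp2 (203.8, 1823 and 54.1 CPM). Under Dcg > Hpo these 3 genes carried the sum, whereas Lcp3 was lower there than in Dcg/+ (127.2, 17.4 and 7.61 CPM). Pcp was nearly level (32.4, 31.7 and 30.7 CPM).

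The remaining lists were each at or under 0.032% in Dcg/+. Neurons and glia held 0.0319%, of which Syt1 alone (203.2 CPM) made 63.7%, with Eaat1 and Syx1A next. Midgut digestion held 0.0279%, of which the maltase gene Mal-A6 (196.2 CPM) made 70.3%. The list held 0.265% under Dcg > Hpo, where deltaTry and gammaTry were at 508.1 and 438.0 CPM against 13.96 and 13.2 CPM in Dcg/+. Not every gene of it rose. Mal-A6 was at 177.2 CPM under Dcg > Hpo, and Jon99Ciii (8.62 CPM in Dcg/+ and 3.62 under Dcg > Hpo) and Jon99Cii (7.35 and 2.41 CPM) were lower. Crystal cells and lamellocytes held 0.0275% (PPO1, PPO2 and mys), plasmatocytes 0.024% (srp, NimB4 and crq), oenocytes 0.0231% (Hnf4, svp and CG1444) and muscle 0.0184% (Mlc2, Act57B and Mf). The muscle list held 0.152% under Dcg > Hpo. Crystal cells and lamellocytes (0.0562%), neurons and glia (0.0473%) and plasmatocytes (0.0276%) were also highest there, whereas oenocytes (0.0224%) were not. Prothoracic gland and corpora allata (sro, dib and sad), ovary and yolk (Yp3, grk and Yp2), imaginal disc (hth, ap and sd), Malpighian tubule (ry, Irk1 and NaPi-T) and trachea (btl, serp and Gasp) each held under 0.01% in Dcg/+. Of the counts of its own list there, sro made 95.3%, Yp3 84.9%, btl 61.2%, hth 58.8% and ry 26.9%. Single genes of these lists can also be expressed in fat body, so a list sum is not a share of cells.

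**Figure D3:**
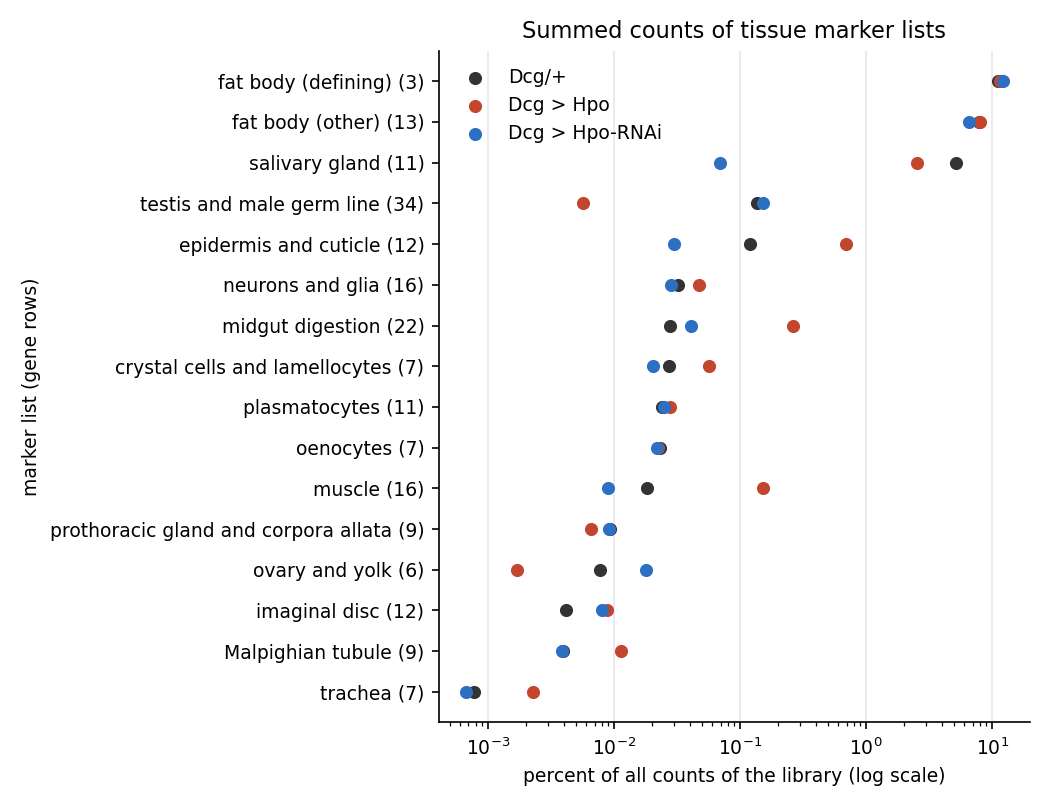
Summed counts of each marker list as a percent of all counts of the library, on a log axis, with 1 point per library and the number of gene rows in parentheses. In Dcg/+ the salivary gland list (5.15%) is the only non-fat list above 0.2%, and the testis list is lowest under Dcg > Hpo (0.00572%). The non-fat lists highest under Dcg > Hpo are cuticle, midgut, muscle, neurons and glia, plasmatocytes, crystal cells and lamellocytes, Malpighian tubule, trachea and imaginal disc.

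Most of the control genes stayed among the most abundant in the other libraries. In Dcg > Hpo, 252 of the 300 (84.0%) were also among the 300 most abundant genes, and under Dcg > Hpo-RNAi 270 (90%). By comparison, the top 300 of Dcg > Hpo and Dcg > Hpo-RNAi shared 239 genes (79.7%). Of the 300, 235 were in the top 300 of all 3 libraries. The Spearman correlation of CPM over the 300 was 0.87 with Dcg > Hpo and 0.80 with Dcg > Hpo-RNAi, and the median member shifted by 19 and 16 ranks. Within narrower bands of the list the correlation was 0.37 and 0.53 over ranks 201 to 300, and 0.88 and 0.37 over ranks 11 to 50, a band that holds Sgs7, Sgs3, Sgs8 and Sgs5. All 79 ribosomal protein genes, all 6 storage genes and all 9 translation factors stayed in the top 300 of both. None of the 7 glue genes did so under Dcg > Hpo-RNAi.

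Retention followed rank under Dcg > Hpo, with all 50 of the first 50 kept, 48 of ranks 51 to 100, 92 of ranks 101 to 200 and 62 of ranks 201 to 300. In Dcg > Hpo-RNAi all of the first 10 were kept, but 35 of the 40 at ranks 11 to 50, 46 of ranks 51 to 100, 95 of ranks 101 to 200 and 84 of ranks 201 to 300. The 5 lost from ranks 11 to 50 were Sgs7, Sgs3, Sgs8, Sgs5 and CG7606. Losses under Dcg > Hpo were mostly near the end of the list, whereas under Dcg > Hpo-RNAi they reached its top. The cut at rank 300 sets part of this pattern, because genes near it leave the list after small changes. Only 2 members lay beyond rank 1000 under Dcg > Hpo and 9 under Dcg > Hpo-RNAi.

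**Figure D4:**
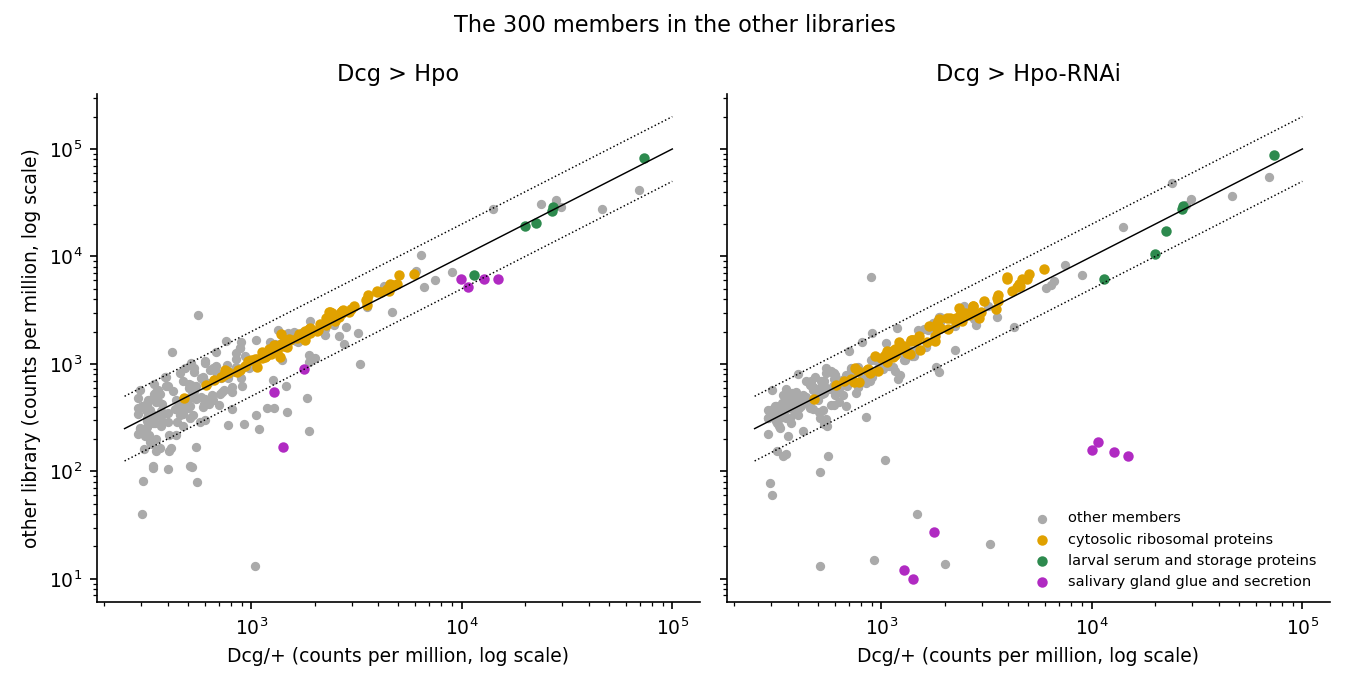
CPM of the 300 members in Dcg/+ (x axis) against Dcg > Hpo (left) and Dcg > Hpo-RNAi (right), log axes, with a solid line at equality and dotted lines at 2-fold. Ribosomal and storage genes all lie within the dotted lines. Closest to the lower one are Fbp1 (0.586 times under Dcg > Hpo, 0.543 under Dcg > Hpo-RNAi) and Lsp1gamma (0.526 times under Dcg > Hpo-RNAi). The 7 glue genes lie between 9.90 and 188.5 CPM under Dcg > Hpo-RNAi.

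Few members differed by 2-fold or more from Dcg/+. In Dcg > Hpo, 3 members were higher by that much and 31 were lower, where of the 11834 genes that reached 10 counts in 1 of the compared libraries 18.8% were higher and 23.3% lower. In Dcg > Hpo-RNAi, 4 members were higher and 23 lower, where of 11521 genes 8.84% were higher and 9.81% lower. The members were chosen for being high in Dcg/+ and counted far more deeply than the median gene, so nothing is read from these differences to the background. The 300 genes at ranks 301 to 600 had 18 higher and 24 lower under Dcg > Hpo, and 6 and 19 under Dcg > Hpo-RNAi. The median log2 ratio of the members was 0.03 under Dcg > Hpo (0.17 over all genes with both counts above 0) and 0.10 under Dcg > Hpo-RNAi (0.09). Both comparisons share the Dcg/+ library.

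The member furthest below its Dcg/+ level under Dcg > Hpo was Cyp6d5. It was at 1038 CPM in Dcg/+, 13.0 CPM under Dcg > Hpo and 128.2 CPM under Dcg > Hpo-RNAi, that is 0.0126 times the Dcg/+ share under Dcg > Hpo (0.0112 to 0.0141), and its rank went from 130 to 3692. The next lowest were CG7587 (0.12 times), Drs (0.126), CG8665 (0.133), Pu (0.145), CG16758 (0.211), CG15404 (0.218) and ade3 (0.229). Cyp6d5 was thus apart from the rest by almost an order of magnitude. The highest relative to Dcg/+ were Lcp1 (5.15 times, 5.05 to 5.25), CG16712 (3.06), CG15369 (2.15) and CR34335 (1.98). The summed cuticle list to which Lcp1 belongs was higher in that library, as given with the marker lists, although Lcp3 was lower. The part of other tissue in the Lcp1 value was not tested.

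In Dcg > Hpo-RNAi the 8 lowest members were CG7606 (0.00641 times, 0.00586 to 0.007), CG12310 (0.00677), CG7587 (0.007), Sgs7 (0.00935), Eig71Ee (0.00949), Sgs3 (0.0118), Sgs4 (0.0154) and Sgs5 (0.0159). All 8 belong to the 12 genes described with the glue. The highest were CR40469 (7.22 times, 7.11 to 7.33), Gs1 (2.14), CR41602 (2.02) and Ama (2.01), a secreted protein of the immunoglobulin superfamily that was at 403.0 CPM in Dcg/+, 104.5 CPM under Dcg > Hpo and 811.4 CPM under Dcg > Hpo-RNAi.

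Length and position were not used in the choice by CPM. The 287 members with a coding length had a median of 759 coding bases, against 1011 for ranks 301 to 600 and 1244 for all genes with at least 10 counts in Dcg/+. The members include 79 cytosolic ribosomal protein genes, with a median of 465 coding bases. Genes without introns made up 9.06% of the members, 8.19% of ranks 301 to 600 and 14.8% of all. Of 298 members with a place in the annotation, 87 (29.2%) lay within 10 kb of another member, against 60 of 299 (20.1%) at ranks 301 to 600. Without neighbours whose exons overlap their own, which can share reads with them, these were 54 (18.1%) and 38 (12.7%). The 87 formed 38 groups, 9 of which had 3 or more members. Besides the groups named so far, these included the tetraspanin genes Tsp42Ek, Tsp42Ep and Tsp42Eo on 2R.

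The counts of some members could not be separated from those of a neighbour. The exons of 107 members (35.7%) overlap those of another annotated gene, a share close to that of ranks 301 to 600 (40.3%) and of all genes (37.9%). In 19 cases both genes of the overlap were members, 15 of them on opposite strands. In 8 of these 15 pairs the ratio of the counts varied by less than 1.1-fold across the 3 libraries, and in 12 by less than 1.2-fold, against 2 and 5 of the 38 neighbouring pairs without shared exons. The median variation was 1.1-fold and 1.57-fold. BHD, the fly folliculin gene, had 0.816, 0.836 and 0.831 times the counts of RpL18, with its own level at 1908, 2535 and 2737 CPM. Tsp42Eo had 0.459, 0.461 and 0.469 times those of Tsp42Ep, and CG14253 had 0.499, 0.494 and 0.511 times those of CG31075. Arp8, which encodes an actin-related protein of the nucleus, was at 546.2, 169.9 and 910.9 CPM and had 0.461, 0.439 and 0.424 times the counts of CG6762 opposite it. Ratios were less constant for Gycalpha99B over Obp99c (0.517, 0.542 and 0.384) and CG3348 over Hmu (1.73, 1.64 and 1.28). Whether the counting used strand is not given in the sources used here, so reads of such partners cannot be told apart, and the levels of BHD, Tsp42Eo, CG14253, Arp8 and similar members are uncertain. Vago, awd, Lsd-1 and CG6762 are partners in such pairs too. On the same strand, CG10962 had 10108 counts and the noncoding CR43836 had 10100 in Dcg/+, with ratios of 1.001, 1.003 and 1.004 in the 3 libraries. RpL23A had 1.118, 1.119 and 1.089 times the counts of Uhg7. The ratio of CG42847 to Fbp2 was less constant (0.0665, 0.0958 and 0.121).

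**Figure D5:**
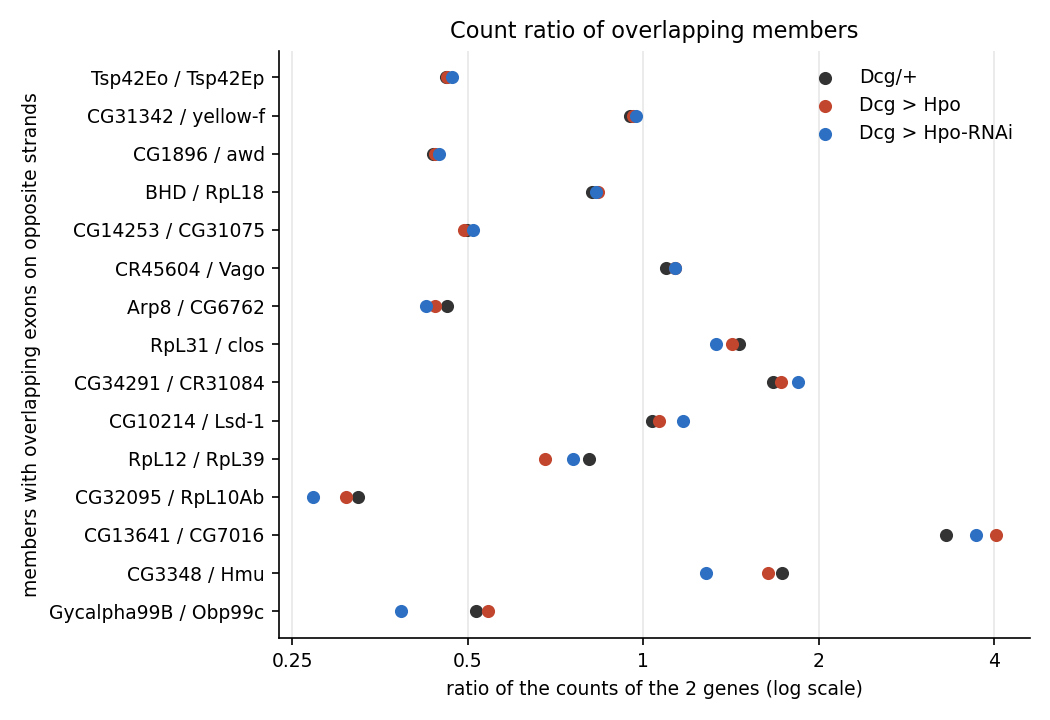
Ratio of the counts of 2 members whose exons overlap on opposite strands, on a log axis, for 15 pairs with 1 point per library. The 8 pairs at the top vary by less than 1.1-fold across the libraries, and Gycalpha99B over Obp99c varies most (1.41-fold).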

How the data were processed

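RNA of 3 genotypes was measured in 1 library each. The authors had libraries made with the Lexogen QuantSeq 3′ kit and analysed by a service company (ebiogen). The deposited values are whole-number read counts per gene, unnormalized, 16509 rows per library, with dm6 named in the submitters' processing notes. The aligner, the counting tool and its annotation are not given in the sources used here, and no filter on low counts is visible. Symbols were matched to RefSeq (Release 6 plus ISO1 MT) and Ensembl release 115 for 16357 rows, including 298 members. Ald and AdenoK had no unique match, so their places were left out.

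CPM used the library total. Shares have exact Clopper-Pearson and counts exact Poisson 95% intervals, and ratios the exact interval of the split (scipy 1.17.1). Reads are not independent molecules, so these cover counting error only. Called means 2-fold or more. Since each genotype had 1 library, no test was run. A simulation with known folds was used to check the scripts. Alternatives were the scaling factors of edgeR 4.0.16 (TMM) and of DESeq2 1.42.0 (median of ratios), other folds and filters, list sizes of 100 and 500, coding length, and classes by symbol alone.

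Genes named are the first 25, the first 4 of each class with 3 or more members, the 5 either side of rank 300, the 8 lowest and 4 highest per other library, and the first 3 per marker list. The remaining names (the other genes at 0.05 times or less, neighbours, overlapping pairs, lower markers of the fat body, salivary, cuticle and midgut lists, CG1746, cer, Vha16-1, CR40677, roX1, trol and Glt) were chosen after their values were seen. Members, classes and marker lists were chosen with earlier results of these data known.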

Additional observations from a re-analysis of the deposited data

How the results depend on the processing

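Of 64 alternative values for 21 results, 37 stayed close to the value reported (counts and percents of a list within 1.5 times, shares of counts within their interval). The share of the list kept in the other libraries held under every alternative run, from 82.3% to 88.0% in Dcg > Hpo and from 85.7% to 90% in Dcg > Hpo-RNAi. No paired analysis was possible because each genotype had 1 library, which also left no replicate to leave out. Without the 10 most abundant genes, the other members held 69.1% of the remaining counts. The top 300 held 80.49% with rows of equal counts at overlapping places counted once. A top 300 drawn anew without rows whose exons overlap another gene held 88.2% of the counts left (an alternative chosen after seeing the data). That list is not the same set of members. Counts divided by coding length gave 39.5% for the unnamed class, 5.26% for storage, 21.6% for ribosomal proteins, 8.44% for glue, 3.69% for odorant binding, 0.741% for translation factors, 0.687% for sugar and amino acid metabolism and 0.596% for lipoproteins and lipid carriers. Classes by symbol alone gave 5.13% for glue, 1.29% for translation factors and 1.39% for sugar and amino acid metabolism. In Dcg > Hpo, a 1.5-fold threshold gave 29 members higher and 56 lower, and a 3-fold threshold 20 lower. In Dcg > Hpo-RNAi, it gave 17 higher and 36 lower at 1.5-fold and 1 higher at 3-fold, and either scaling factor gave 2 higher. With TMM factors 42 members were lower in Dcg > Hpo, and without the glue class (chosen after seeing the data) 16 were lower in Dcg > Hpo-RNAi. The share over all genes was computed only at 2-fold and with library totals. Member counts at other thresholds or factors therefore have no background beside them, and nothing is read from them. TMM factors shifted every log2 ratio to Dcg/+ by -0.18 for Dcg > Hpo and -0.09 for Dcg > Hpo-RNAi, and median-of-ratios factors by -0.13 and -0.07, so ratios within that distance of 1 have no firm direction. Relative to the total without storage proteins, all non-fat lists held 6.82%, and 0.529% without the salivary gland list. Dividing by coding length favours short genes by construction, so the shares on that scale do not measure the error of the tag shares. Shares of single libraries carry no spread between animals.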
